A study of Homo sapiens with 12 samples.

Results

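The genes described here make, take up, move and export cholesterol. The module lists 33 genes, chosen by symbol and matched to the array through gene identifiers. Of these, 31 had a probe set annotated to a single gene, out of 18239 such genes on the array, and 29 were bright enough to be tested, out of 13120. FDFT1 and NR1H2 had no such probe set and were not analysed here. ABCA1 and NR1H3 had one but did not pass the low-value filter, a level of log2 4.20 exceeded on at least 3 arrays, which ABCA1 exceeded on 0 and NR1H3 on 2. Each gene is represented by the probe set with the highest mean over the 12 arrays.

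Cholesterol is built from acetyl-CoA through the mevalonate pathway, which also feeds prenyl groups to proteins, dolichol and ubiquinone. The SREBP transcription factors switch on the synthesis and uptake genes when sterols in the endoplasmic reticulum run low, with SCAP as their escort and the INSIG proteins as the brake that holds them back. Oxysterols act through the nuclear receptors of the LXR family, which turn on the export pumps ABCA1 and ABCG1 and the ubiquitin ligase MYLIP, which removes lipoprotein receptors from the cell surface. Endocytosed cholesterol leaves the lysosome through NPC2 and NPC1.

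RNA came from OCI-HBL1, OCI-LY3 and OCI-LY10, established human lines of the activated B cell type of diffuse large B cell lymphoma (ABC-DLBCL). Each line gave 1 array under each of 4 treatments, so each group has n = 3 and the cell line is the replicate. Control cells are labelled 24 h, with no vehicle named. CPI203, an inhibitor of the BET proteins that bind acetylated chromatin, was used at 500 nM, in arrays labelled 24 h. IRAKi, an inhibitor of the IRAK kinases whose chemical identity the labels do not give, was used at 50 µM, in arrays labelled 6 h. Combo cells received both agents and are labelled 24 h. The treatment protocol gives 18 h of CPI203 and 6 h of IRAKi. Wherever IRAKi alone is set against another group, treatment and label time cannot be told apart. No separate cultures of a line were arrayed under 1 treatment, so the p-values speak only to the spread over arrays of different lines. In RNA of whole cultures, fewer expressing cells and less RNA per cell cannot be told apart.

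The array medians lay between 4.64 and 4.73 on the log2 scale, and arrays correlated with one another at 0.923 to 0.991. The B cell genes CD79A, CD79B, MS4A1, PAX5 and CD22 and the ABC-type genes IRF4 and BATF were above the filter level (log2 4.20) on all 12 arrays. The T cell gene CD3D and the monocyte gene CSF1R were above it on 0 arrays, CD14 on 1, CD3E on 3, CD3G on 8 and the epithelial gene EPCAM on 4. HEXIM1, a gene that rises under BET inhibition, was higher by 1.81 ± 0.20 (log2, SE, n = 3) with CPI203 (limma adjusted p = 0.0014) and by 1.50 ± 0.20 with Combo (limma adjusted p = 0.00058). The array's nonspecific control probe sets averaged 4.00 on the OCI-LY10 IRAKi array and 3.64 to 3.79 on the other 11.

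Promoter sequence was read for the members from RefSeq windows (GRCh38.p14, 250 bases before to 50 bases after each transcript start), which exist for 29 of the 33. The windows were searched on both strands for the sterol regulatory element TCACNCCAC, to which SREBPs bind, the E-box CACGTG, and the CCAAT box CCAAT, the site of the SREBP partner NF-Y. The sterol element was found in 1.39% of the 27305 genes with a window and in 1 member, SREBF2. The E-box was found in 8.77% of all genes and in 5 members, LSS, SC5D, INSIG1, SCAP and ABCA1. The CCAAT box was found in 39.7% of all genes and in 20 members. A match is a run of letters, not a bound site. These 5 stretches are shown because they stand for the response groups described next: SREBF2 holds the sterol element, INSIG1 and MYLIP rose, and MSMO1 and MVD fell. Each runs 5′ to 3′ on the gene's strand from base -190 to base -26 before the start, and capitals mark the motif matches on either strand (ATTGG is CCAAT read on the other strand).
SREBF2, chr22:41832915-41833079, + strand: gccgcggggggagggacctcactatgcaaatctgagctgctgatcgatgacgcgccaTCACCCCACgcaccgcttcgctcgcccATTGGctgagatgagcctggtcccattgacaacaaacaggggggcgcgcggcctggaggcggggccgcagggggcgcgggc
INSIG1, chr7:155297688-155297852, + strand: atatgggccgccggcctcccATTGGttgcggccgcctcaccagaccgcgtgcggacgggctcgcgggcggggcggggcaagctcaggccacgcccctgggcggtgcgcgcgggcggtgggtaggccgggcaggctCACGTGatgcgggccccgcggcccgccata
MYLIP, chr6:16128896-16129060, + strand: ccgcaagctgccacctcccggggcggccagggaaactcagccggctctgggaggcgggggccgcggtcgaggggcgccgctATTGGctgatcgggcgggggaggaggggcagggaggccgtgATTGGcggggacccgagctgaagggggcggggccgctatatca
MSMO1, chr4:165327479-165327643, + strand: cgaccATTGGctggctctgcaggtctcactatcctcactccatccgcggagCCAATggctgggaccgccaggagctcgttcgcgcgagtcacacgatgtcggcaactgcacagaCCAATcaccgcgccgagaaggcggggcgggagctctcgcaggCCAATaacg
MVD, chr16:88663117-88663281, - strand: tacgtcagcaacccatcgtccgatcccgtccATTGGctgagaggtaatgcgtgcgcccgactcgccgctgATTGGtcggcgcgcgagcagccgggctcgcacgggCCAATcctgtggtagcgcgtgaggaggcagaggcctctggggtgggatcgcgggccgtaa

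Under CPI203 alone, 6 of the 29 tested members rose and none fell at a limma adjusted p below 0.05, Benjamini-Hochberg over all genes, while 23 did not pass. Over all genes tested, 13.1% were called in this comparison, 6.92% risen and 6.21% fallen. The 6 were MYLIP, AACS, TM7SF2, NPC1, IDI1 and INSIG1, which belong to different arms of the module, and their rises ran from 0.62 to 1.06 on the log2 scale. The median change over the 29 was -0.02, beside 0.01 over all genes. At an unadjusted p below 0.05, which 28.3% of all genes reached, 4 further members were higher and 3 lower.

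MYLIP, the ubiquitin ligase, stood at log2 levels of 5.86 (OCI-LY3), 4.81 (OCI-HBL1) and 4.46 (OCI-LY10) on the Control arrays, and at 6.56, 6.06 and 5.68 in the same order with CPI203. It was higher in every line, although the groups overlapped because OCI-LY3 began above the treated OCI-LY10 array. The rise of 1.06 ± 0.18 (SE, n = 3) corresponds to 2.08-fold (limma adjusted p = 0.0068). AACS, which activates acetoacetate for lipid synthesis, went from 7.06, 8.01 and 6.43 in Control to 8.02, 8.59 and 7.83, a rise of 0.98 ± 0.20 or 1.97-fold (limma adjusted p = 0.013). OCI-LY10, the line with the least AACS in Control, had the greatest rise, 1.40, against 0.58 in OCI-HBL1.

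IDI1 encodes the isomerase that readies isopentenyl units for chain building. Its Control levels were 9.46, 10.25 and 10.04 and its CPI203 levels 10.20, 10.73 and 10.85, in the same order of lines, a rise of 0.68 ± 0.16 (limma adjusted p = 0.025). INSIG1, the SREBP brake and itself an SREBP target, went from 11.26, 10.55 and 11.60 to 11.77, 11.36 and 12.13, or 0.62 ± 0.13 (limma adjusted p = 0.018). Both genes were higher in all 3 lines, with groups that overlapped.

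TM7SF2, a sterol reductase acting just after lanosterol demethylation, stood at 6.91, 6.82 and 7.20 in Control and at 8.09, 7.91 and 7.41 with CPI203. The groups did not overlap, which held for 11.5% of all genes, but the increase in OCI-LY10 was only 0.21, against 1.19 in OCI-LY3 and 1.09 in OCI-HBL1. The fitted rise was 0.83 ± 0.23 (limma adjusted p = 0.045). The 4 other TM7SF2 probe sets were higher with CPI203 by 0.23 to 1.04 (mean of 3 lines). On the brightest of them OCI-LY10 went from 6.67 to 7.41. NPC1, the lysosomal cholesterol exporter, rose by 0.80 ± 0.23 (limma adjusted p = 0.046), from 5.33, 7.50 and 6.70 to 6.49, 8.11 and 7.32. INSIG2, a second brake protein, was the other member without overlap, at 8.06 to 8.34 in Control and 8.42 to 8.88 with CPI203. It did not pass the test.

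Below Control but not past the test were MSMO1, the methyl oxidase of the sterol ring, at -0.52 ± 0.15 (limma adjusted p = 0.051), ACAT2, the thiolase of the first step, at -0.54 ± 0.19 (limma adjusted p = 0.099), and SREBF2, the SREBP gene tied most closely to cholesterol, at -0.45 ± 0.16 (limma adjusted p = 0.090). All 3 were lower with CPI203 in each line, as were 25.2% of all genes and 7 members in all. SREBF1, the sister gene tied to fatty acid synthesis, was at -0.04 with a 95% interval from -0.36 to 0.28. The counts fell when a line was left out. Of the 6 calls, 1, MYLIP, was left without OCI-LY3 and 1, TM7SF2, without OCI-LY10. Without OCI-HBL1, 3 were left, and MSMO1 was called lower. Calls over all genes fell as well, from 1723 of 13120 to 216 without OCI-LY3, 282 without OCI-LY10 and 720 without OCI-HBL1.

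The rise under CPI203 also depended on the scaling. The arrays carry 12 probe sets for poly-A spike-in transcripts, bacterial RNAs used as controls, and these were brighter than in Control by 0.303 ± 0.170 (SD, n = 3) with CPI203, 0.22 ± 0.0334 with IRAKi and 0.477 ± 0.269 with Combo. Scaling each array to them moved the median of all genes by -0.303, -0.22 and -0.477 in these comparisons. On that scale MYLIP was the only member that rose with CPI203, and ACAT2, MSMO1 and SREBF2 fell, 1 risen and 3 fallen against 6 and 0 as deposited. Over all genes the same scaling called 1.26% risen and 11.7% fallen, since it lowers every gene of an array alike. MSMO1 also fell after cyclic loess, with 4 risen and 1 fallen, beside 6.42% and 7.42% over all genes. What moved the spike-in signal was not tested.

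**Figure D1:**
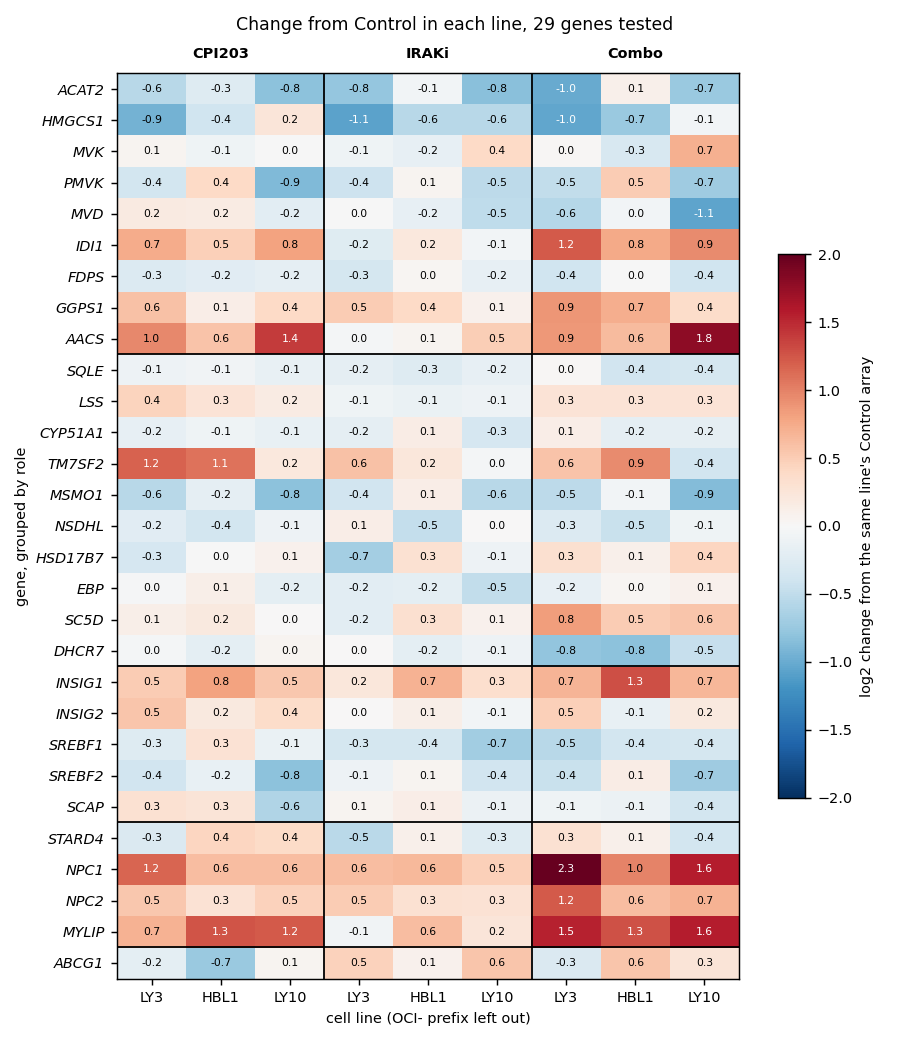
Log2 change of each of the 29 tested members (rows, grouped by role: mevalonate and isoprenoid enzymes, squalene to cholesterol enzymes, SREBP control, uptake and transfer, efflux) on each treated array from the Control array of the same line (columns). Red is higher and blue lower than Control, and NPC1 in OCI-LY3 under Combo, at 2.30, is the deepest red.

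Under IRAKi alone, none of the 29 members passed the limma test after adjustment, and 0.168% of all genes did. At an unadjusted p below 0.05, 4 members were higher and 4 lower, 8 of 29, where 15.4% of all genes passed. The median of the members was -0.11, beside -0.00 over all genes. The lower were HMGCS1, ACAT2, EBP and SREBF1, and the higher were INSIG1, NPC1, NPC2 and GGPS1.

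HMGCS1, the synthase that makes the direct precursor of mevalonate, had the lowest estimate. In Control its levels were 9.15 (OCI-LY3), 9.43 (OCI-HBL1) and 9.26 (OCI-LY10), and with IRAKi 8.07, 8.87 and 8.71. The groups did not overlap, as for 5.26% of all genes, and the estimate was -0.73 ± 0.21 (limma adjusted p = 0.15). SQLE, the squalene epoxidase, was the other member without overlap, at 10.32 to 10.49 in Control and 10.16 to 10.27 with IRAKi.

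ACAT2 stood at -0.56 ± 0.19 (limma adjusted p = 0.23) and EBP, a sterol isomerase, at -0.30 ± 0.12 (limma adjusted p = 0.29). SREBF1 stood at -0.47 ± 0.14 (limma adjusted p = 0.18) and was lower in each line, with 6.98, 7.47 and 6.18 in Control and 6.64, 7.11 and 5.48 with IRAKi. INSIG1, at 0.42 ± 0.13 (limma adjusted p = 0.20), NPC1, at 0.58 ± 0.23 (limma adjusted p = 0.27), and NPC2, at 0.37 ± 0.13 (limma adjusted p = 0.24), were higher in each line. GGPS1, which makes the geranylgeranyl donor, was at 0.33 ± 0.14 (limma adjusted p = 0.30). When a gene's probe sets were averaged, GGPS1 was called, at 0.73 (limma adjusted p = 0.048).

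**Figure D2:**
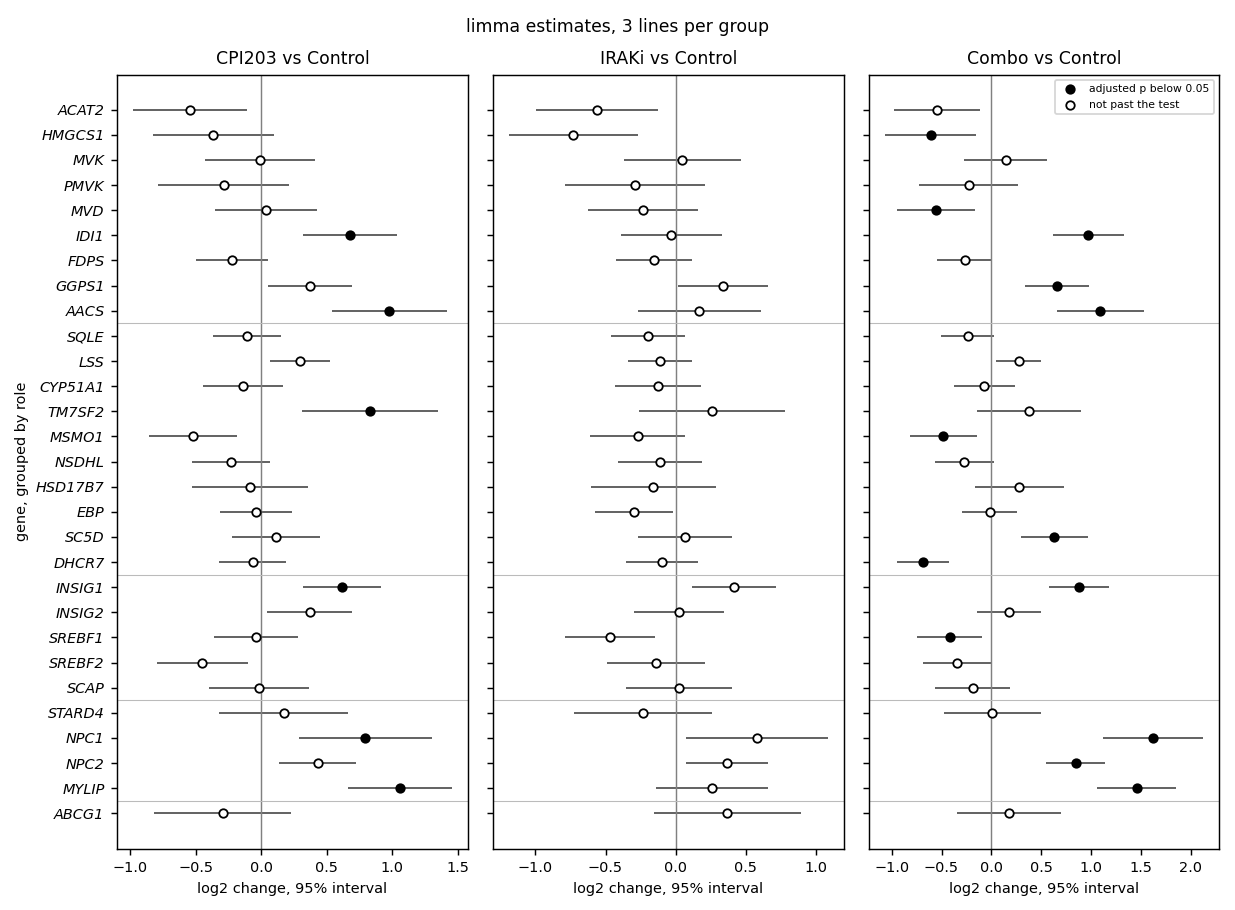
Fitted log2 change of each tested member against Control (points) with its 95% interval (lines), in 3 panels for CPI203, IRAKi and Combo, n = 3 lines per group. Filled points passed at an adjusted p below 0.05: 6 for CPI203, 0 for IRAKi and 13 for Combo.

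Under the combination, 13 of 29 members passed the limma test against Control, 8 risen and 5 fallen, and 16 did not. Over all genes, 32.1% passed, 15.4% risen and 16.7% fallen. NPC1, MYLIP, AACS, IDI1, INSIG1, NPC2, GGPS1 and SC5D rose, and DHCR7, HMGCS1, MVD, MSMO1 and SREBF1 fell. The median change was 0.01, beside -0.00 over all genes, since the module moved both ways. By role, the uptake and transfer genes had 3 risen and 0 fallen of 4, the mevalonate and isoprenoid enzymes 3 risen and 2 fallen of 9, the enzymes from squalene to cholesterol 1 risen and 2 fallen of 10, and SREBP control 1 risen and 1 fallen of 5. The comparisons of CPI203, IRAKi and Combo with Control share the 3 Control arrays.

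NPC1 had the largest rise of any member in this comparison. It stood at 5.33 (OCI-LY3), 7.50 (OCI-HBL1) and 6.70 (OCI-LY10) in Control and at 7.63, 8.50 and 8.28 with Combo, so that every Combo array was above every Control array, as for 19.1% of all genes in either direction. The fit gave 1.63 ± 0.23, or 3.09-fold (limma adjusted p = 0.00071). The rise was 2.30 in OCI-LY3, the line with the least NPC1 in Control, and 1.00 in OCI-HBL1, the line with the most. Each rise is taken from the same Control array that ranks the line. The second NPC1 probe set did not show this order of rises. It went from 5.38 to 5.71 in OCI-LY3, 5.63 to 6.08 in OCI-HBL1 and 5.03 to 6.04 in OCI-LY10. NPC2, the soluble lysosomal protein that hands cholesterol to NPC1, went from 8.47, 10.42 and 9.83 to 9.70, 11.03 and 10.52, a rise of 0.85 ± 0.13 (limma adjusted p = 0.0012). Its lines stayed in one order, and the groups overlapped.

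MYLIP reached 7.39, 6.08 and 6.03 with Combo from 5.86, 4.81 and 4.46 in Control, without overlap. The rise of 1.46 ± 0.18, or 2.75-fold, had a limma adjusted p of 0.00038. INSIG1 reached 11.95, 11.84 and 12.26 from 11.26, 10.55 and 11.60, also without overlap, and rose by 0.88 ± 0.13 or 1.84-fold (limma adjusted p = 0.0011). The spread of INSIG1 over lines was 0.22 (SD, n = 3) with Combo and 0.53 in Control, because OCI-HBL1, the lowest in Control, moved furthest.

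Among the mevalonate and isoprenoid enzymes, IDI1 went from 9.46, 10.25 and 10.04 to 10.68, 11.01 and 10.98, a rise of 0.97 ± 0.16 (limma adjusted p = 0.0017) without overlap. AACS went from 7.06, 8.01 and 6.43 to 7.92, 8.65 and 8.21, a rise of 1.09 ± 0.20 (limma adjusted p = 0.0025), with OCI-LY3 Combo just below OCI-HBL1 Control. GGPS1 went from 8.55, 8.50 and 9.39 to 9.43, 9.22 and 9.77, a rise of 0.66 ± 0.14 (limma adjusted p = 0.0067). On either side of IDI1 in the pathway, MVD and HMGCS1 moved the other way. MVD, the decarboxylase that forms isopentenyl diphosphate, stood at 6.61, 6.40 and 6.61 in Control and at 6.03, 6.36 and 5.55 with Combo. The groups did not overlap, the change in OCI-HBL1 was only -0.05, and the fit gave -0.56 ± 0.17 (limma adjusted p = 0.035). HMGCS1 went from 9.15, 9.43 and 9.26 to 8.11, 8.69 and 9.21, or -0.61 ± 0.21 (limma adjusted p = 0.047), and its change in OCI-LY10 was -0.05. FDPS, MVK and PMVK did not pass, nor did ACAT2, at -0.55 ± 0.19 (limma adjusted p = 0.057).

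In the later pathway, DHCR7, the reductase of the final step, was lower with Combo. Its levels were 7.53, 8.51 and 3.77 in Control and 6.75, 7.70 and 3.31 with Combo. The OCI-LY10 levels were near those of the nonspecific controls, so a fall is shown only in OCI-LY3 and OCI-HBL1. The fit over all lines gave -0.69 ± 0.12 (limma adjusted p = 0.0019), and without OCI-LY10 the change was -0.80 and was still called. MSMO1 went from 10.80, 9.62 and 10.31 to 10.28, 9.56 and 9.45, or -0.48 ± 0.15 (limma adjusted p = 0.035), with a change of -0.06 in OCI-HBL1. SC5D, the desaturase just before DHCR7, moved up instead, from 9.95, 9.68 and 9.63 to 10.78, 10.19 and 10.19, without overlap, by 0.63 ± 0.15 (limma adjusted p = 0.010). HSD17B7, a sterol ketone reductase, was also without overlap, at 6.20 to 6.55 in Control and 6.63 to 6.80 with Combo, and did not pass. SQLE, LSS, CYP51A1, TM7SF2, NSDHL and EBP did not pass.

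SREBF1 fell by 0.42 on the log2 scale, with an SE of 0.14 and a limma adjusted p of 0.0499, from 6.98, 7.47 and 6.18 to 6.44, 7.11 and 5.83. SREBF2 was at -0.34 (limma adjusted p = 0.13), and SCAP and INSIG2 did not pass with the probe sets used. ABCG1 was the only efflux gene tested, at 0.18 with a 95% interval from -0.35 to 0.70. Its Control and Combo levels were below the filter level in OCI-LY3 and OCI-LY10, so those lines say little about its direction. In OCI-HBL1, where it was above that level, the change was 0.55. ABCA1 lay between 3.34 and 4.09 on all 12 arrays and NR1H3 had a mean of 3.87, both too dim for a statement on their direction.

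Leaving out OCI-LY3 kept 7 of the 13 Combo calls (NPC1, MYLIP, AACS, IDI1, INSIG1, NPC2 and DHCR7), leaving out OCI-HBL1 kept 11, and leaving out OCI-LY10 kept 9. Calls over all genes fell from 4214 of 13120 to 2072, 3420 and 2232, in the same order. On the poly-A scale the split was 3 risen and 13 fallen, with NPC1, MYLIP and AACS still called higher, beside 3.93% risen and 41.8% fallen over all genes. After median centring it was 9 risen and 1 fallen, beside 18.8% and 13.6%. Both scalings move all genes of an array by 1 value, so the split of the members moves with that of all genes. The 3 genes and DHCR7 are the ones called in the same direction under each of these scalings. The SREBF1 call stood in only 3 of 15 alternatives and the HMGCS1 call in 7.

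**Figure D3:**
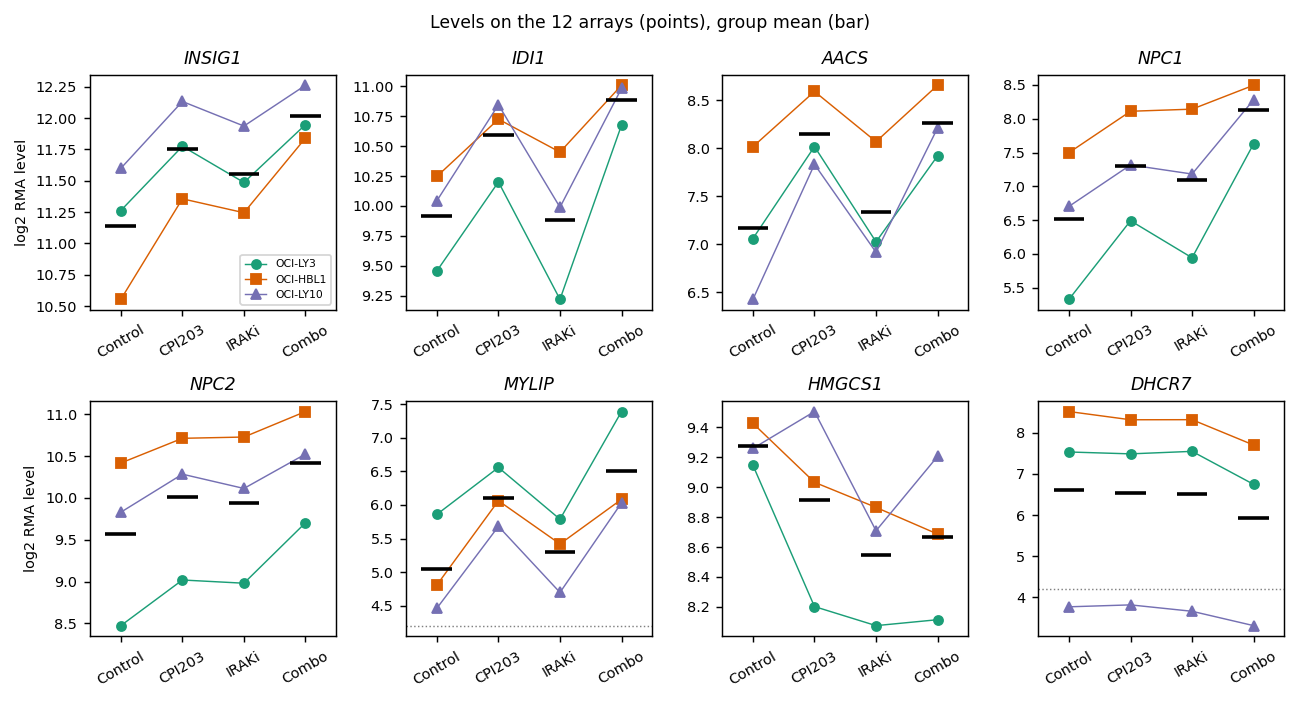
Log2 RMA level of 8 members on the 12 arrays, with points joined within a cell line and black bars at the group means (n = 3). The dotted line, drawn only for MYLIP and DHCR7, is the filter level of 4.20, and each panel has its own axis. In INSIG1, IDI1, NPC1, NPC2 and MYLIP the Combo point is the top of each line, and in DHCR7 it is the bottom.

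Adding IRAKi to CPI203 changed 1 of 29 members past the limma test. DHCR7 was lower with Combo than with CPI203, at -0.62 ± 0.12 (limma adjusted p = 0.022), and 4.66% of all genes were called, 2.71% fallen. OCI-HBL1 had 7.70 against 8.31, OCI-LY3 had 6.75 against 7.49 and OCI-LY10 had 3.31 against 3.82. The OCI-LY10 levels were near those of the nonspecific controls, so a fall is shown only in OCI-LY3 and OCI-HBL1. The call was lost without any 1 of the 3 lines. In those fits 0 to 3 of all 13120 genes were called, against 612 with every line. NPC1 was higher by 0.83 ± 0.23 (limma adjusted p = 0.070), by 1.14 in OCI-LY3, 0.96 in OCI-LY10 and 0.39 in OCI-HBL1, and did not pass. SC5D, at 0.52 ± 0.15 (limma adjusted p = 0.081), and MVD, at -0.60 ± 0.17 (limma adjusted p = 0.086), did not pass either.

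Adding CPI203 to IRAKi changed 9 of 29, with 8 risen and 1 fallen, where 18.7% of all genes were called, 8.21% risen and 10.5% fallen. The risen were MYLIP (1.20), NPC1 (1.05), IDI1 (1.00), AACS (0.93), SC5D (0.57), NPC2 (0.48), INSIG1 (0.46) and LSS (0.38), the lanosterol synthase. DHCR7 was again the gene that fell, by 0.59, with its OCI-LY10 levels near background. The limma adjusted p ranged from 0.0026 for MYLIP to 0.040 for INSIG1. IDI1, which was at -0.03 with IRAKi alone, stood at 9.22, 10.45 and 9.99 under IRAKi and at 10.68, 11.01 and 10.98 under Combo. Without OCI-LY3 1 call was left, MYLIP, without OCI-LY10 2 were left and without OCI-HBL1 5 of the 9. Calls over all genes fell from 2456 of 13120 to 526, 730 and 1704, in the same order. On the poly-A scale the split of the members was 3 risen and 1 fallen, beside 2.63% and 14.6% over all genes.

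Whether both agents together did more or less than the sum of each on the log2 scale was read from the interaction term, Combo minus CPI203 minus IRAKi plus Control. None of the 29 members passed, by limma, beside 0.00762% of all genes, and at an unadjusted p below 0.05 there was 1 member, where 8.27% of all genes passed. That member was DHCR7, at -0.52 ± 0.16 with a 95% interval from -0.89 to -0.16 (limma adjusted p = 0.48). It was at -0.07 with CPI203, -0.10 with IRAKi and -0.69 with Combo. These estimates include OCI-LY10, where DHCR7 was near background. The interaction of NPC1 was 0.25 with an interval from -0.46 to 0.96, and that of MYLIP 0.14 with an interval from -0.42 to 0.71, so a departure of either sign was not resolved.

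The order of the 4 treatments within each line was also read from the probe sets used, without a fit. Combo was the highest treatment in all 3 lines for 6 members, IDI1, SC5D, INSIG1, NPC1, NPC2 and MYLIP, which is 20.7% of the 29, beside 10.3% of all genes. Control was the lowest in all 3 for 4 members, GGPS1, INSIG1, NPC1 and NPC2, beside 9.67% of all genes. Combo was the lowest in all 3 for DHCR7 alone, beside 11.5% of all genes, with the OCI-LY10 values near background. CPI203 was highest for TM7SF2 and INSIG2, beside 3.59% of all genes, and IRAKi lowest for LSS and EBP, beside 2.26%. INSIG1, NPC1 and NPC2 thus had Control at the bottom and Combo at the top in every line, with both single agents between. Their other probe sets did not all keep this order. On the second NPC1 probe set, OCI-HBL1 had 6.52 with CPI203 and 6.08 with Combo. There OCI-LY3 had 5.22 with IRAKi and 5.38 in Control. A further INSIG1 probe set had 11.39 with CPI203 and 11.29 with Combo in OCI-LY10. The remaining INSIG1 probe set and the brighter of the others of NPC2 kept the order.

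The lines differed from one another for most members. By the limma F-test over lines, 21 of 29 passed, beside 65.9% of all genes. The 21 include DHCR7 and ABCG1, which passed the filter only through the lines where they are high. Their passing is therefore no support for a difference between lines. Each line is represented by itself alone, on 4 arrays of different treatments. The ranges of all 3 lines lay apart for 3 members, LSS, DHCR7 and SREBF1 (10.3%, beside 7.1% of all genes). DHCR7 passed the filter only through OCI-LY3 and OCI-HBL1, so its gap from OCI-LY10 adds no support. The 10.3% is therefore not read as an excess over all genes. No pair of lines was apart for 15 (51.7%, beside 45.6%). OCI-LY10 had the lowest mean for 15 of the 29, or 51.7%, beside 34.5% of all genes. This count includes DHCR7, which adds no support here either.

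DHCR7 and ABCG1 are described without a test, since each passed the filter only through the lines where it is high. DHCR7 averaged 8.21 in OCI-HBL1 and 7.33 in OCI-LY3. In OCI-LY10 it did not exceed 3.82 on any array, which is near the nonspecific controls and not well above background. ABCG1, the export pump, averaged 5.76 in OCI-HBL1, and 5 of its 12 arrays were above the filter level. Those were the 4 OCI-HBL1 arrays and the OCI-LY10 IRAKi array, at 4.32. That array also had the brightest nonspecific controls, whose part in this value was not tested.

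SREBF1 averaged 7.36 in OCI-HBL1, 6.69 in OCI-LY3 and 5.89 in OCI-LY10 (limma adjusted p = 1.7e-05). LSS averaged 9.94 in OCI-HBL1, 9.27 in OCI-LY10 and 8.59 in OCI-LY3 (limma adjusted p = 3.1e-06). NPC1 and NPC2 shared their order of lines, with OCI-HBL1 the highest at 8.06 and 10.72, OCI-LY10 next at 7.37 and 10.19, and OCI-LY3 the lowest at 6.35 and 9.04. The line differences did not pass for SREBF2, FDPS, MVD, HSD17B7, SC5D, SQLE, TM7SF2 and STARD4, a protein that carries sterols between membranes.

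**Figure D4:**
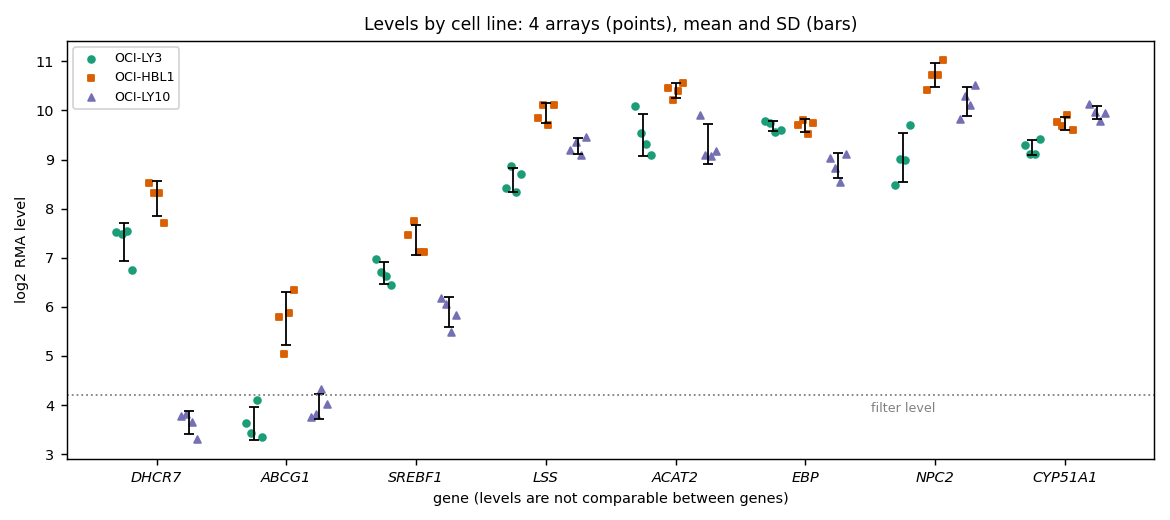
Log2 RMA level of 8 members in each cell line, with 4 arrays per line as points and the mean and SD as bars; the dotted line is the filter level of 4.20. DHCR7 in OCI-LY10 and ABCG1 in OCI-LY3 lie below that level on every array, while the lines of LSS and SREBF1 do not overlap.

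The array carries several probe sets for most members, which test the choice of the brightest. For 25 of the 29 there were 51 further probe sets above the filter, and 47 of them had the same sign of change under Combo as the one used. IDI1 had 1 further probe set, at 0.92 against 0.97, and INSIG1 had 2, at 0.85 and 1.11 against 0.88. MYLIP had 2, at 0.84 and 1.21 against 1.46. These 3 genes were higher under Combo on each of their probe sets above the filter.

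Other members depended more on the probe set. The second NPC1 probe set rose by 0.60 against 1.63. AACS had 3 others that ran from 0.18 to 0.81 against 1.09, NPC2 had 2 that ran from 0.01 to 0.73 against 0.85, and SC5D had 3 that ran from -0.02 to 0.52 against 0.63. The second SREBF1 probe set was at -0.06 against -0.42. Among members not called under Combo, SREBF2 had 2 others, at -0.56 and -0.47 against -0.34. INSIG2 had 2 others, both at 0.59 against 0.17, and each was higher with Combo in every line. TM7SF2 had 4 others that ran from 0.16 to 0.77 against 0.38. The 4 probe sets of opposite sign belonged to SC5D, EBP, MVK and STARD4, and of these genes only SC5D had been called.

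**Figure D5:**
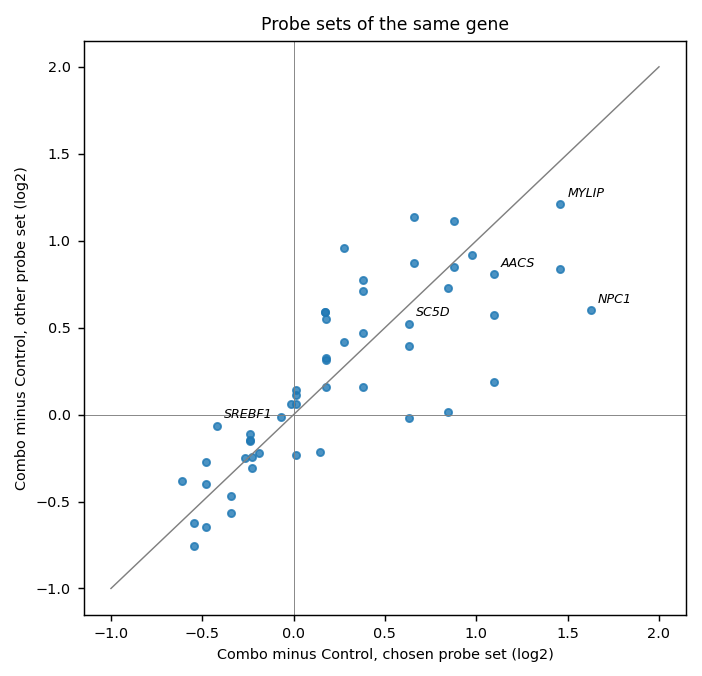
Combo minus Control in log2 (mean of 3 lines) for the probe set used of each member (horizontal) against each of its 51 other probe sets above the filter (vertical), 1 point per other probe set. The grey diagonal marks equal change, and 47 points share the sign of the probe set used, with NPC1 at 1.63 and 0.60 well below the diagonal.

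CCAAT boxes were found among the risen and the fallen genes alike, with no test made. Of the 8 members that rose with Combo, 6 had a CCAAT box in the window and AACS and NPC1 had none. Of the 5 that fell, 4 had one and SREBF1 had none. The printed stretches of INSIG1, MYLIP, MSMO1 and MVD each hold at least 1. SREBF2, whose stretch holds the sterol element, did not pass in any comparison of treatments on the deposited scale with the probe set used.

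Genes of neighbouring pathways were counted in 5 lists drawn up for this module. None of them had a called member under IRAKi alone, where limma called 0.168% of all genes. Over all genes, 13.1% were called with CPI203 and 32.1% with Combo, the latter 15.4% risen and 16.7% fallen. Of 10 fatty acid synthesis genes, 1 rose and 2 fell with CPI203 and also with Combo, which for Combo is near the share of all genes. LPIN1, a phosphatidate phosphatase and SREBP target, was at 0.78 ± 0.22 and 1.34 ± 0.22 (limma adjusted p = 0.044 and 0.0015). The desaturases FADS1, at -0.86 ± 0.20 and -1.25 ± 0.20, and SCD, at -0.59 ± 0.16 and -0.74 ± 0.16, fell in both comparisons.

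Of 10 genes of sterol sensing and SREBP processing, none was called with CPI203, while 1 rose and 3 fell with Combo, 4 of 10 beside 32.1% of all genes. The site protease MBTPS2, which releases SREBPs from the membrane, fell by 0.92 ± 0.17, and RNF145, a ubiquitin ligase, by 0.64 ± 0.11. RNF139, another membrane ubiquitin ligase, rose by 0.70 ± 0.16. Of 13 genes of sterol esterification, transfer and oxysterols, 1 rose and 1 fell with CPI203 and 2 rose and 2 fell with Combo, both near the 13.1% and 32.1% of all genes. OSBP, which exchanges sterol at membrane contacts, rose by 0.95 ± 0.15 with Combo, and LIPA, the lysosomal acid lipase that frees cholesterol upstream of NPC2, by 0.49 ± 0.13 with CPI203 and 0.65 ± 0.13 with Combo. The sterol transporter gene GRAMD1B fell by 1.29 ± 0.23 with CPI203 and 1.12 ± 0.23 with Combo, and GRAMD1A by 1.07 ± 0.30 with Combo.

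Of 13 genes that use isoprenoids, 1 rose and 1 fell with CPI203, and 0 rose and 5 fell with Combo, beside 15.4% risen and 16.7% fallen over all genes. NUS1, a subunit of the dolichol synthase, was at -0.68 ± 0.16 with CPI203 and -0.98 ± 0.16 with Combo, while its partner DHDDS was at 0.47 ± 0.13 with CPI203. PDSS1, which makes the ubiquinone tail, fell by 0.79 ± 0.18 with Combo. None of 5 LXR partners and targets passed in these comparisons. The limma adjusted p of the companion genes named lay at or below 0.046 for CPI203 and 0.022 for Combo.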

How the data were processed

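The authors deposited log2 expression values made with RMA (Affymetrix Expression Console 1.1, per the submitters' processing notes) from biotin-labelled cRNA of 150 ng total RNA per sample; the genome build is not given in the sources used here. The values were used as deposited. Of 49386 probe sets, 45253 carried 1 gene, 1327 several, 2800 none, and 6 single-gene controls were left out; 99.82% of the single-gene ones matched RefSeq gene names. Per gene the probe set with the highest mean was kept, and a gene was tested when it exceeded the 40th percentile of all values (log2 4.20) on at least 3 arrays.

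All 12 arrays were fitted with limma 3.58.1 (R 4.3.3, data.table version 1.17.8) with treatment and cell line as terms, 6 residual and 3.66 prior degrees of freedom, two-sided tests and Benjamini-Hochberg adjustment over 13120 genes, with calls at an adjusted p below 0.05. Tables and figures were made with pandas 2.3.3, numpy 2.4.6 and matplotlib 3.10.9. The procedure was tested on simulated data. The cell line pairs the arrays: deviations from the group means correlated at 0.819 to 0.907 within a line (18 pairs) and at -0.501 to -0.351 between lines. The negative values follow from centring the 3 lines of each group on their mean and are no separate support for the pairing. Members and companion lists were chosen with earlier results of these data known. All members may be named, and of each companion list at most the 2 largest called rises and falls per comparison. The number of arrays limits the precision. Alternatives were no replicate block, a random block, only the groups compared, weighted arrays, eBayes with a trend and robust variances, averaged probe sets, no filter, a 60th percentile filter (log2 5.70), median centring, cyclic loess, poly-A spike-in scaling, and leaving out each line or the OCI-LY10 IRAKi array.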

Additional observations from a re-analysis of the deposited data

Results flagged for a closer look

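PMVK, the kinase that adds the second phosphate to mevalonate, moved one way in OCI-HBL1 and the other way in the other two lines. Its log2 levels in OCI-HBL1 were 7.25 in Control and 7.64, 7.30 and 7.76 with CPI203, IRAKi and Combo. In OCI-LY3 they were 8.68 in Control and 8.32, 8.27 and 8.20, and in OCI-LY10 they were 8.14 and 7.25, 7.62 and 7.43. The mean change of the 3 treated arrays from Control was 0.3201 in OCI-HBL1, -0.4209 in OCI-LY3 and -0.7058 in OCI-LY10. The 3 changes within a line share 1 Control array, and the difference between the lines was not tested.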

How the results depend on the processing

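None of the 29 called changes of members reversed in any of the 15 alternatives. Counts of called members moved more. With no replicate block, the calls fell to 0 for CPI203 (6 as reported), Combo (13), Combo against CPI203 (1) and Combo against IRAKi (9). Over all 13120 genes they fell to 4, 465, 2 and 7, from 1723, 4214, 612 and 2456, in the same order. Array weights gave 10 for CPI203 and 3 for Combo against CPI203, beside 2511 and 805 over all genes. Trend and robust estimation gave 4 for Combo against CPI203, averaged probe sets and median centring 2 each, and a random block and the fit of only the groups compared 0 each. The calls over all genes were 954, 606 (of 11840 tested), 646, 466 and 198, in the same order. For Combo against IRAKi, poly-A scaling left 4, a random block 5, the fit of only the groups compared 3 and the fit without the OCI-LY10 IRAKi array 5. These alternatives called 2262, 2080, 977 and 1487 of all genes, in the same order. For IRAKi averaged probe sets gave 1 (0 as reported). Leaving out 1 line at a time gave 1 to 4 calls for CPI203, 7 to 14 for Combo, 0 for Combo against CPI203, 1 to 6 for Combo against IRAKi and 13 to 18 for the cell lines (21 as reported), with 15 without OCI-LY10 and 19 without its IRAKi array. With a line left out, the calls over all genes were 216 to 720, 2072 to 3420, 0 to 3, 526 to 1704 and 5920 to 5956. These follow the same order of comparisons, and the last was 8641 as reported. The interaction stayed at 0 in the 14 alternatives that give it, which leaves out the fit of only the groups compared. NPC1, MYLIP and AACS kept their Combo call in 14 of 15 alternatives, and DHCR7, which lost it with no replicate block (limma adjusted p = 0.94) and a random block (limma adjusted p = 0.359), in 13. The calls kept least often were SREBF1 (3 of 15) and HMGCS1 (7) under Combo, NPC1 (6) and TM7SF2 (8) under CPI203, and INSIG1 (6), NPC2 (6) and LSS (7) for Combo against IRAKi. The causes were not tested. Where a line was left out, the line and the number of arrays changed together and cannot be told apart. DHCR7 in OCI-LY10, ABCG1 in OCI-LY3, ABCA1 and NR1H3 were near background, so their values say little about direction.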
